A study of Sus scrofa with 12 samples.

Results

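Matricellular proteins and the provisional matrix were described through 10 genes, POSTN, TNC, THBS1, THBS2, SPARC, FN1, CTHRC1, VCAN, SPP1 and TGFBI, taken by gene symbol from a table of 31908 genes. Each symbol matched 1 row. The 12 RNA-seq libraries form 4 groups of 3 replicates and come from pig satellite cells, the stem cells of skeletal muscle. The cells were labelled muscle satellite cells of a line called C3H, usually a mouse name, although organism and genome build are pig. They were kept in RPMI medium with fetal bovine serum. Control cells (genotype tag WT_0h and WT_60h) and cells of an arm named CBP (CBP_0h and CBP_60h) were sampled in proliferation (0h) and in differentiation (60h). The CBP arm is read here as cells given SGC-CBP30, a ligand of the CBP and p300 bromodomains. The protocol names that compound at 5 uM per ml, as labelled, with an exposure of 48 h for proliferating and 60 h for differentiating cells. That text stands on every sample, controls included, so the labels do not settle whether CBP means the compound or a genetic change. Sources used here do not give the vehicle of the controls. Nothing states that replicates came from separate animals or cultures, so p-values measure the spread between these libraries, which may be technical.

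Matricellular proteins are secreted into the extracellular matrix, where they act on cells through integrins and other receptors more than they bear load. A provisional matrix rich in fibronectin and versican is laid down early in tissue repair and is later replaced by collagen. In regenerating muscle, satellite cells and interstitial fibroblasts contribute such proteins to the niche in which myoblasts divide and fuse.

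Expression is given as FPKM, reads scaled by gene length and library size, which allows levels of different genes to be set side by side. Libraries held 16095335 to 19155240 reads, recovered from the steps of the FPKM values. Of the 10 genes, 10 passed the filter, which asked for FPKM of at least 1 in 3 libraries. POSTN passed only through the control libraries and CTHRC1 only through the 60h libraries, so their place in the test depended on the groups in which they are high. All 7 markers of muscle satellite cells and myoblasts were present, among them PAX7 at 14.4 ± 0.145 and MYOD1 at 22.3 ± 0.981 FPKM in control cells at 0h (SD, n = 3). In bulk RNA, fewer cells of a type and less RNA per cell cannot be told apart.

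The 10 genes together made up 2.17 ± 0.0181% of the reads of control libraries at 0h and 3.02 ± 0.0386% at 60h (SD, n = 3). The CBP arm had shares of 1.64 ± 0.0502% and 1.94 ± 0.0569%. After rescaling FPKM to TPM, in which every library has the same sum, the summed level was 11915 ± 114 in control cells at 0h and 17641 ± 299 at 60h. It was 8455 ± 237 and 10827 ± 261 TPM in the CBP arm. The plot of summed levels shows that 5 genes, FN1, THBS1, TNC, SPARC and SPP1, filled most of each bar. THBS1 alone was 45.4 ± 0.0958% of the sum in control cells at 0h and 11.2 ± 0.168% in the CBP arm at 60h.

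**Figure D1:**
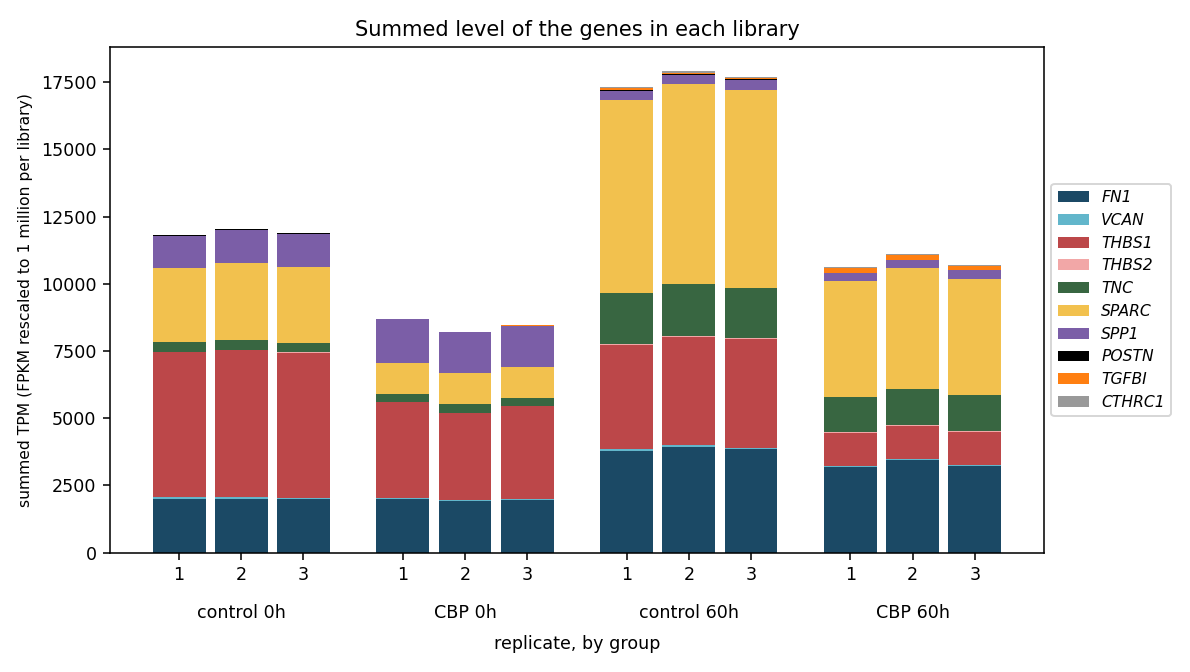
Stacked bars give the summed TPM of the 10 genes in each of the 12 libraries, on a linear axis from 0, coloured by gene. The CBP bars lie below the control bars of the same time, at means of 8455 against 11915 TPM at 0h and 10827 against 17641 TPM at 60h.

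At 0h, 7 of the 10 genes were lower in the CBP arm than in control cells and 1, SPP1, was higher (limma on log2(FPKM + 1), Benjamini-Hochberg adjusted p under 0.05). Of all 11636 genes tested, 18.1% were called lower and 44.2% higher, 62.3% in all. The median log2 change was -0.41 for the 10 genes and 0.12 for all genes. The libraries of both arms did not overlap for 7 of the 10 genes at 0h, against 66.8% of all genes, so non-overlap by itself was common. A fall of at least 2-fold was seen in 2 of them, POSTN and SPARC, against 4.73% of all genes. For POSTN a fall was favoured by the filter, which it passed only through the control libraries.

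After 60h, again 7 of the 10 genes were lower in the CBP arm and 1 was higher, but the higher one was TGFBI. The background was 27% lower and 44.7% higher, 71.6% in all. The median log2 change was -0.31 for the 10 genes and 0.10 for all genes. For 8 of the 10 genes the arms did not overlap at 60h (74.3% of all genes). Falls of at least 2-fold were seen in 2 genes, POSTN and THBS1 (7.6% of all genes), and a rise of that size in 1, TGFBI (5.79%). The limit of the filter for POSTN holds here too.

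**Figure D2:**
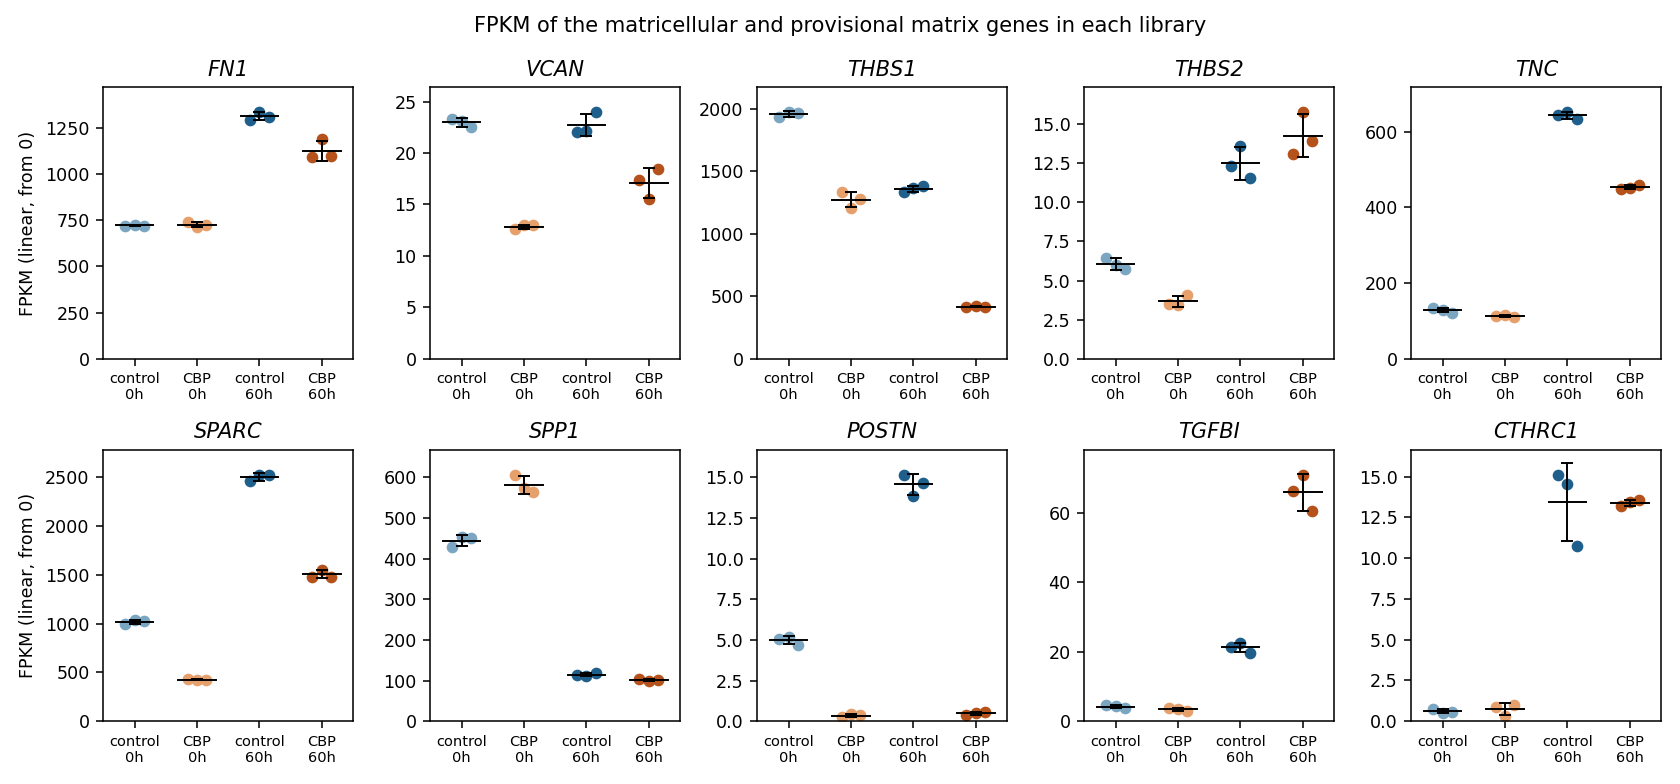
Points give the FPKM of each gene in the 3 libraries of each group, on linear axes from 0 that differ between genes. Black lines give the mean with its SD. POSTN stood near 0 in the 6 CBP libraries, and TGFBI was highest in the CBP arm at 60h, at 60.4 to 70.9 FPKM.

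Fibronectin and versican are the scaffold of the provisional matrix. FN1 encodes fibronectin, which binds integrins and on which other matrix proteins assemble (ENSSSCG00000016174, chromosome 15, 117658158 to 117737145 in Sscrofa11.1). It stood at 721, 726 and 718 FPKM in control cells and at 741, 712 and 725 FPKM in the CBP arm at 0h. These values overlapped, and no difference was called (log2 change 0.01, SE 0.032, limma adjusted p = 0.823). That outcome depended on scaling: after median-of-ratios scaling FN1 was called lower at 0h (-0.13, adjusted p = 0.0206), while over all alternatives the adjusted p ranged from 0.0206 to 0.944.

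At 60h FN1 had risen to 1296, 1337 and 1311 FPKM in control cells and to 1092, 1188 and 1097 FPKM in the CBP arm. Control libraries were all higher than CBP libraries at 60h, by 1.17-fold (log2 change -0.22, SE 0.032, limma adjusted p = 5.16e-05). FN1 was among the 28 genes with the highest FPKM in each 60h library. Its reads reached 1.08% to 1.12% of a control library at 60h.

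VCAN encodes versican, a large proteoglycan that binds hyaluronan (ENSSSCG00000014136, chromosome 2, 91682177 to 91811674). At 0h it measured 23.3, 23.1 and 22.5 FPKM in control cells and 12.6, 12.97 and 12.96 FPKM in the CBP arm. The groups were far apart relative to their spread, a 1.79-fold fall (log2 change -0.79, SE 0.053, limma adjusted p = 1.32e-07). By 60h it stood at 22.1, 22.2 and 24.0 FPKM in control cells and 17.4, 15.5 and 18.4 FPKM in the CBP arm, a 1.33-fold fall. The gap was smaller at 60h than at 0h (interaction 0.40 on the log2 scale, SE 0.075, limma adjusted p = 0.000872). Control cells showed no called change of VCAN between times (log2 change -0.01, SE 0.053, adjusted p = 0.823), whereas in the CBP arm it rose 1.33-fold.

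The thrombospondins encoded by THBS1 and THBS2 are trimeric glycoproteins that bind integrins and the receptors CD36 and CD47, and THBS1 can activate latent TGF-beta. THBS1 (ENSSSCG00000004789, chromosome 1, 131728781 to 131746098) was the most abundant of the 10 genes at 0h. It measured 1937, 1977 and 1966 FPKM in control cells, where it took 1.13% to 1.15% of all reads, and 1334, 1209 and 1279 FPKM in the CBP arm. At 60h it measured 1333, 1367 and 1379 FPKM in control cells and 412, 422 and 414 FPKM in the CBP arm.

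Control libraries at 60h and CBP libraries at 0h overlapped for THBS1, and every other pair of groups was separate. The fall in the CBP arm was 1.54-fold at 0h (log2 change -0.62, SE 0.033, limma adjusted p = 1.65e-08) and 3.27-fold at 60h (log2 change -1.71, SE 0.033, limma adjusted p = 1.61e-12). The difference between these effects passed the test (interaction -1.08, SE 0.046, limma adjusted p = 5.43e-09). By rank of FPKM within a library, THBS1 stood 14th or 15th in control cells at 0h and 101st or 102nd in the CBP arm at 60h.

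THBS2, its close relative (ENSSSCG00000004012, chromosome 1, 854473 to 882467), was far less abundant. It measured 6.44, 5.98 and 5.73 FPKM in control cells and 3.48, 3.44 and 4.07 FPKM in the CBP arm at 0h, a 1.65-fold fall (log2 change -0.60, SE 0.078, limma adjusted p = 3.70e-05). By 60h it stood at 12.4, 13.6 and 11.5 FPKM in control cells and 13.1, 15.8 and 13.9 FPKM in the CBP arm. These groups overlapped, and THBS2 was not called at 60h (log2 change 0.18, SE 0.078, limma adjusted p = 0.0615). It was called higher without CBP_0h replicate 3 (adjusted p = 0.0469), WT_60h replicate 2 (0.0264) or CBP_60h replicate 1 (0.0292), and the adjusted p ranged from 0.00895 to 0.571 over all alternatives.

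The difference between arms in THBS2 shifted upward from 0h to 60h (interaction 0.77, SE 0.1105, limma adjusted p = 0.000106), while that on THBS1 shifted downward. The ratio of THBS1 to THBS2 was 301 to 343 in control cells and 315 to 383 in the CBP arm at 0h. At 60h it was 100 to 120 in control cells and 26.7 to 31.5 in the CBP arm. The ratio thus overlapped between arms at 0h and was separate at 60h.

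TNC encodes tenascin C, a six-armed glycoprotein of wounds and growing tissue that weakens adhesion to fibronectin (ENSSSCG00000005494, chromosome 1, 255533235 to 255630381). At 0h it measured 134, 130 and 122 FPKM in control cells and 114, 116 and 111 FPKM in the CBP arm, a fall of 1.13-fold (log2 change -0.17, SE 0.034, limma adjusted p = 0.000755). At 60h it measured 644, 653 and 634 FPKM in control cells and 449, 452 and 461 FPKM in the CBP arm, a fall of 1.42-fold (log2 change -0.50, SE 0.034, limma adjusted p = 5.75e-08). No CBP library reached a control library of its time. The effect was larger at 60h (interaction -0.33, SE 0.048, limma adjusted p = 0.000117), and TNC rose between times 5.01-fold in control cells and 3.99-fold in the CBP arm.

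SPARC, also called osteonectin, binds collagen and calcium and limits cell spreading (ENSSSCG00000017082, chromosome 16, 71368164 to 71380972). At 0h it measured 996, 1036 and 1029 FPKM in control cells and 429, 427 and 428 FPKM in the CBP arm, a 2.38-fold fall (log2 change -1.25, SE 0.027, limma adjusted p = 5.32e-12). At 60h it was the most abundant of the 10 genes in both arms, with 2461, 2527 and 2530 FPKM in control cells and 1483, 1556 and 1482 FPKM in the CBP arm. The fall at 60h was 1.66-fold (log2 change -0.73, SE 0.027, limma adjusted p = 2.63e-10). All 4 groups were separate. Unlike THBS1, the effect on SPARC was smaller at 60h than at 0h (interaction 0.52, SE 0.038, limma adjusted p = 4.06e-07).

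SPP1 encodes osteopontin, a secreted phosphoprotein with an integrin-binding site that also acts as a cytokine (ENSSSCG00000009216, chromosome 8, 131077786 to 131085334). It was the 1 gene of the 10 that was higher in the CBP arm at 0h, at 607, 574 and 564 FPKM against 428, 452 and 450 FPKM in control cells. This was a 1.31-fold rise with no overlap (log2 change 0.39, SE 0.036, limma adjusted p = 1.82e-06), and 0.26 after median-of-ratios scaling. At 60h it measured 104, 99.6 and 103 FPKM in the CBP arm and 113, 112 and 120 FPKM in control cells, a fall of 1.13-fold (log2 change -0.17, SE 0.036, limma adjusted p = 0.00102). The difference between these effects, which were of opposite sign, passed the test (interaction -0.56, SE 0.050, limma adjusted p = 2.34e-06). SPP1 fell between times in both arms, by 3.86-fold in control cells and 5.70-fold in the CBP arm.

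POSTN and TGFBI encode periostin and the TGF-beta-induced protein, secreted relatives built of the same repeated fasciclin domains that bind integrins. POSTN (ENSSSCG00000009361, chromosome 11, 13225183 to 13258973) measured 5.07, 5.19 and 4.71 FPKM in control cells at 0h, from 439 to 475 reads. CBP libraries measured 0.268, 0.433 and 0.356 FPKM, from 24 to 39 reads. At 60h it measured 15.2, 13.9 and 14.7 FPKM in control cells and 0.375, 0.530 and 0.558 FPKM in the CBP arm, the latter from 34 to 52 reads. Every CBP library was below every control library.

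The fall of POSTN was 14.2-fold at 0h (log2 change -2.15, SE 0.0675, limma adjusted p = 2.05e-10) and 29.9-fold at 60h (log2 change -3.39, SE 0.0675, limma adjusted p = 2.30e-12). The log2(FPKM + 1) scale understates folds of a gene this low. Among the 11636 tested genes it had the 57th lowest log2 change at 0h and the 11th lowest at 60h. The effect was larger at 60h (interaction -1.24, SE 0.0955, limma adjusted p = 6.51e-07). POSTN rose 2.92-fold between times in control cells. Its rise of 1.38-fold in the CBP arm did not pass (log2 change 0.14, SE 0.0675, limma adjusted p = 0.0863). It did pass with a pseudocount of 0.1 (adjusted p = 0.034), after TPM scaling (0.0182), and without CBP_0h replicate 2 (0.0446) or CBP_60h replicate 1 (0.0258), with a range of 0.0182 to 0.275 over the alternatives.

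TGFBI (ENSSSCG00000014316, chromosome 2, 138191793 to 138225373) measured 4.57, 4.24 and 3.75 FPKM in control cells at 0h and 3.86, 3.42 and 3.05 FPKM in the CBP arm. These groups overlapped. The fall of 1.22-fold was called (log2 change -0.22, SE 0.0815, limma adjusted p = 0.0313), but the call was lost without WT_0h replicate 1 (0.118) or 2 (0.0753), without CBP_0h replicate 2 (0.0658) or 3 (0.126), in a fit of only both 0h groups (0.0533), with no filter (0.0712) and by limma-voom on reads (0.125). Over all alternatives the adjusted p ranged from 0.00229 to 0.126.

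At 60h TGFBI stood at 21.5, 22.5 and 19.8 FPKM in control cells and at 66.2, 70.9 and 60.4 FPKM in the CBP arm. The CBP libraries were all higher, by 3.10-fold (log2 change 1.59, SE 0.0815, limma adjusted p = 5.52e-09). The difference between 60h and 0h passed the test (interaction 1.81, SE 0.115, limma adjusted p = 1.33e-07). Thus at 60h the CBP arm held less POSTN and more TGFBI than control cells. The ratio of TGFBI to POSTN was 1.35 to 1.62 in control libraries at 60h and 108 to 177 in CBP libraries.

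CTHRC1 encodes a secreted protein of repair fibroblasts and injured vessels that limits collagen deposition (ENSSSCG00000006051, chromosome 4, 33759541 to 33771625). At 0h it was near the limit of detection, with 12 to 18 reads in control libraries and 7 to 20 in CBP libraries (0.608 ± 0.126 and 0.725 ± 0.369 FPKM, SD, n = 3). At 60h it measured 15.1, 14.5 and 10.7 FPKM in control cells and 13.2, 13.4 and 13.6 FPKM in the CBP arm. The arms overlapped at both times, and no difference was called at 0h (log2 change 0.08, SE 0.151, limma adjusted p = 0.662) or at 60h (0.01, SE 0.151, adjusted p = 0.970). Its SE was the largest of the 10 genes, so small differences were not detectable.

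**Figure D3:**
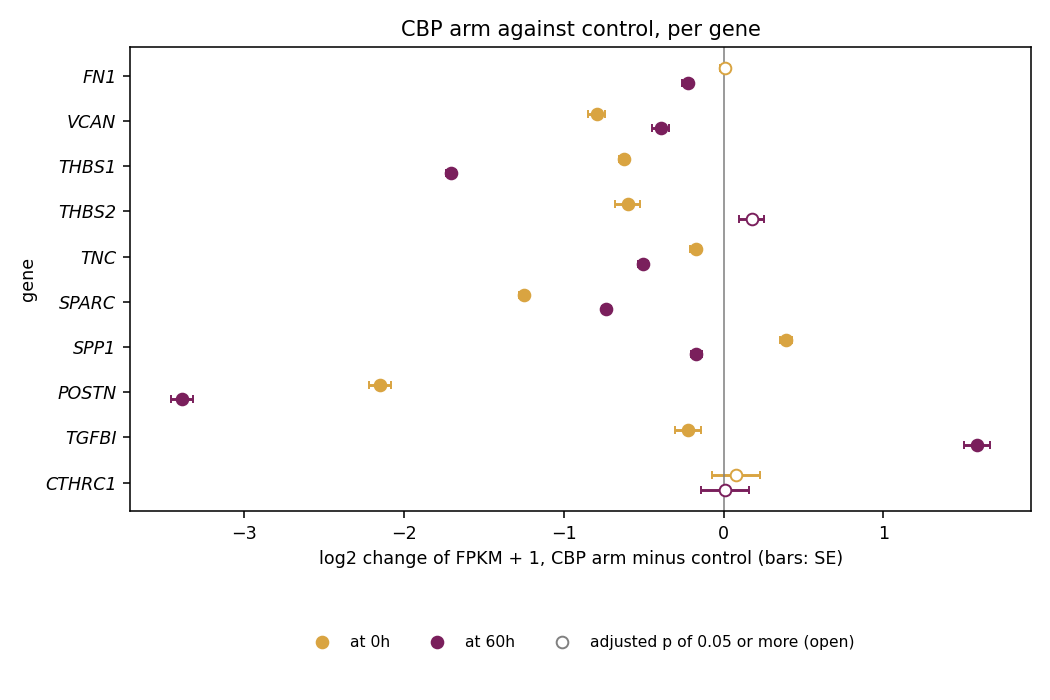
Points give the log2 change of FPKM + 1 in the CBP arm relative to control cells at 0h and at 60h, with bars for the SE, and open points did not pass an adjusted p of 0.05. POSTN lies farthest to the left at both times (-2.15 and -3.39), and TGFBI at 60h (1.59) farthest to the right.

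Scaling shifted these effects together. With median-of-ratios scaling the median log2 change over all genes went down by 0.12 at 0h and by 0.11 at 60h. Under it the log2 changes at 0h were -0.31 for TNC, -0.76 for THBS1, -0.71 for THBS2, -0.92 for VCAN, -1.39 for SPARC and -0.33 for TGFBI. At 60h they were -0.36 for FN1, -0.52 for VCAN, -0.64 for TNC, -0.87 for SPARC, -0.30 for SPP1 and 1.46 for TGFBI. Among the genes called in either direction, the share called higher fell from 71.0% to 49.1% at 0h and from 62.4% to 47.8% at 60h.

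Between 0h and 60h, control cells raised 7 of the 10 genes and lowered 2, THBS1 and SPP1 (limma), against 28.8% of all genes raised and 38% lowered. Of the 7, 6 rose at least 2-fold (5.93% of all genes): CTHRC1 22.2-fold, TGFBI 5.07-fold, TNC 5.01-fold, POSTN 2.92-fold, SPARC 2.46-fold and THBS2 2.07-fold. The rise of CTHRC1 was favoured by the filter, which it passed only through the 60h libraries. Its fold rests on 12 to 18 reads per control library at 0h. FN1 rose 1.82-fold. SPP1 was the 1 gene that fell at least 2-fold (5.22% of all genes), and THBS1 fell 1.44-fold. The median log2 change was 1.12 for the 10 genes and -0.05 for all genes, and the times did not overlap for 9 of the 10 genes (70.8% of all genes).

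In the CBP arm, 7 of the 10 genes also rose and 2 fell, against 31.3% and 41.5% of all genes, 72.7% in all. The members called were not all the same: VCAN was called in the CBP arm and not in control cells, and POSTN the reverse. CTHRC1 rose 18.5-fold, TGFBI 19.1-fold, TNC 3.99-fold, THBS2 3.89-fold, SPARC 3.52-fold, FN1 1.55-fold and VCAN 1.33-fold. For CTHRC1 the same limit of the filter holds, with 7 to 20 reads per CBP library at 0h. SPP1 fell 5.70-fold and THBS1 3.06-fold, the 2 falls of at least 2-fold (8.03% of all genes). Rises of that size were seen in 5 (7.56%). For 9 of the 10 genes the times did not overlap (75.2% of all genes). These comparisons share libraries with those between arms, so the tests are not independent.

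**Figure D4:**
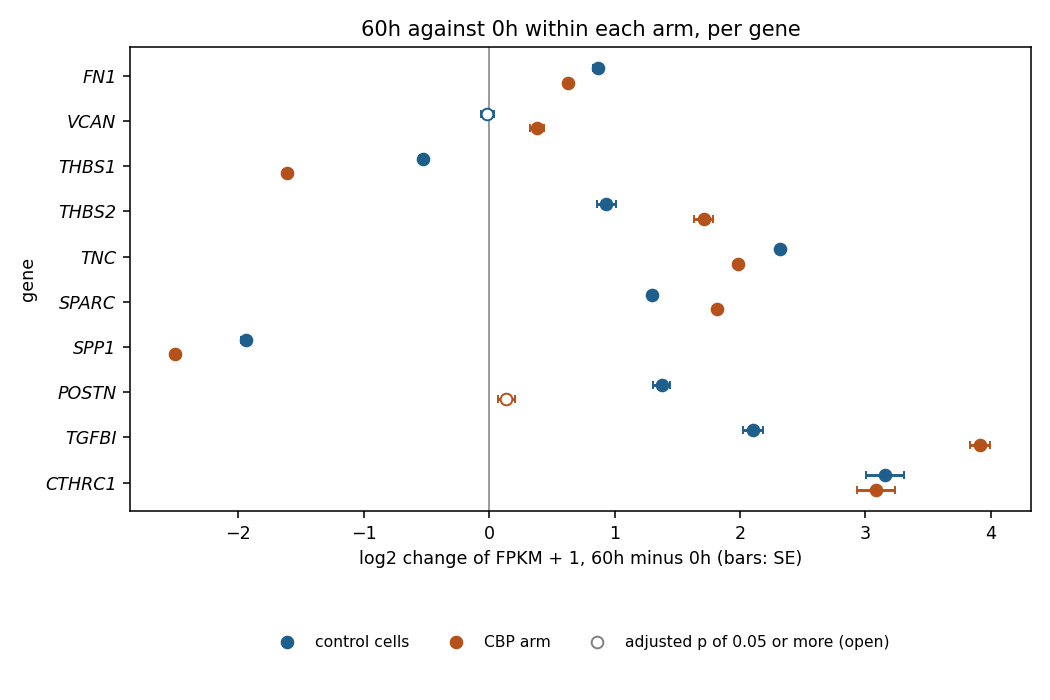
Points give the log2 change of FPKM + 1 from 0h to 60h in control cells and in the CBP arm, with bars for the SE, and open points did not pass an adjusted p of 0.05. SPP1 and THBS1 lie left of 0 in both arms, POSTN rose in control cells (1.38) and TGFBI rose most in the CBP arm (3.91).

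The effect of the arm differed between times for 9 of the 10 genes, in all but CTHRC1 (interaction -0.07, SE 0.213, limma adjusted p = 0.798). It shifted downward in 5, POSTN, THBS1, SPP1, TNC and FN1, and upward in 4, TGFBI, THBS2, SPARC and VCAN. Among all genes tested, 26.7% shifted downward and 24.3% upward, 50.9% in all.

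The order of levels also differed between groups. In control cells at 0h it ran from THBS1 through SPARC, FN1, SPP1, TNC, VCAN, THBS2, POSTN and TGFBI to CTHRC1, and no neighbours overlapped. In the CBP arm at 0h FN1 and SPP1 stood above SPARC, and THBS2 overlapped TGFBI, as did CTHRC1 and POSTN at the bottom. At 60h SPARC led in both arms. In control cells at 60h THBS1 overlapped FN1, VCAN overlapped TGFBI, and the libraries of POSTN, CTHRC1 and THBS2 overlapped from neighbour to neighbour. In the CBP arm at 60h THBS1 had dropped below FN1 and TNC, VCAN, THBS2 and CTHRC1 lay close together, and POSTN was last, 27.5-fold below CTHRC1.

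The lists of related genes that follow are read against all genes tested, of which 18.1% were called lower and 44.2% higher in the CBP arm at 0h (median log2 change 0.12) and 27% lower and 44.7% higher at 60h (median 0.10). That background depended on scaling. After median-of-ratios scaling, 3095 of 11617 genes were lower and 2987 higher at 0h, and 4192 were lower and 3834 higher at 60h. The lists were not counted under that scaling. Other matricellular genes were examined as a list of 27, of which 17 were tested. Relative to control cells, 10 were lower and 3 higher at 0h, and 10 were lower and 5 higher at 60h, with median log2 changes of -0.28 and -0.22 (0.12 and 0.10 for all genes). MGP, matrix Gla protein, an inhibitor of calcification, fell from 285 ± 16.6 to 38.1 ± 2.14 FPKM at 0h and from 651 ± 12.6 to 64.4 ± 4.53 FPKM at 60h (SD, n = 3). SPARCL1, a relative of SPARC, fell 4.19-fold at 0h, and the CCN family members CCN3 and CCN4 fell 5.08-fold and 2.44-fold. At 60h CCN4 fell 4.93-fold. COMP, a thrombospondin of cartilage, fell 10.6-fold at 60h but passed the filter only through the control libraries of that time.

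Receptors for these proteins were tested in 20 cases of 24 listed. Of these, 11 were lower and 4 higher at 0h, and 15 were lower and 3 higher at 60h, with median log2 changes of -0.13 and -0.35. Over all genes 18.1% were lower and 44.2% higher at 0h, and 27% and 44.7% at 60h. ITGA8, an integrin subunit that binds fibronectin, tenascin C and osteopontin, fell 3.58-fold at 0h and 3.86-fold at 60h. The syndecan SDC2 fell 2.70-fold and 2.38-fold. ITGB6, which pairs with ITGAV to bind fibronectin and latent TGF-beta, was low and fell from 1.59 to 0.305 FPKM at 0h and from 3.60 to 0.181 FPKM at 60h. It passed the filter only through the control libraries. ITGB3, the partner of ITGAV in the vitronectin receptor, fell 2.14-fold at 60h. ITGA3 rose 2.58-fold at 0h.

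The list of other provisional matrix and hyaluronan genes had 5 tested members of 18. There, 2 were higher and 2 lower at 0h, and 1 was higher and 3 lower at 60h, with medians of 0.07 and -0.26 (0.12 and 0.10 for all genes). TGM2, the transglutaminase that cross-links fibronectin, fell 4.86-fold and 18.3-fold, and CEMIP, which degrades hyaluronan, fell 5.76-fold and 6.56-fold. Without the control libraries neither would have passed the filter, so their place among the tested genes depended on the arm in which they are high. The link protein HAPLN4 rose 1.40-fold and 1.92-fold. HMMR, a hyaluronan-binding protein of the mitotic spindle, rose 1.65-fold at 0h and fell 1.24-fold at 60h.

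Of 21 tested proteases and assembly enzymes, 7 were higher and 7 lower in the CBP arm at 0h, against 44.2% and 18.1% of all genes. At 60h 11 were higher and 9 lower, against 44.7% and 27% of all genes, and the medians were -0.04 and 0.18. The collagen cross-linking oxidases LOX and LOXL1 fell 1.77-fold and 1.85-fold at 0h, and LOXL1 fell 3.08-fold at 60h. ADAMTS20, a versican-cleaving protease, fell 2.89-fold and the plasminogen activator PLAU 1.61-fold at 0h. At 60h the gelatinase MMP2 rose 2.55-fold, from 224 to 570 FPKM, and PLAUR, the receptor of PLAU, fell 2.60-fold. ADAMTS15 rose 9.50-fold at 60h from 0.149 FPKM and passed the filter only through the CBP libraries of that time.

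In TGF-beta signalling, which induces several of the 10 genes in many cell types, 9 of 21 tested genes were lower and 3 higher in the CBP arm at 0h, and 14 were lower and 5 higher at 60h, with medians of -0.06 and -0.37. In all, 12 of 21 were called at 0h, against 62.3% of all genes, and 19 of 21 at 60h, against 71.6%. The ligand TGFB3 fell 2.74-fold at 0h and 2.65-fold at 60h, and TGFB2 fell 2.27-fold at 0h. PMEPA1, a feedback target of the pathway, fell 5.13-fold at 0h. LTBP2 and LTBP4, of the family of latent TGF-beta binding proteins, fell 6.53-fold and 4.28-fold at 60h. SMAD3, the signal transducer, rose 2.58-fold at 60h, from 17.5 ± 0.944 to 45.0 ± 0.848 FPKM (SD, n = 3).

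The genes most like a member over the 4 group means were sought among 7871 genes, by the root mean square difference of centred log2(FPKM + 1) values. For POSTN they were MGP (0.28), CAVIN4 (0.31) and MAP3K7CL (0.34). CAVIN4, a caveolar protein of muscle, measured 4.43 ± 0.135 and 0.708 ± 0.0791 FPKM in control and CBP cells at 0h, and 11.09 ± 0.617 and 0.893 ± 0.0788 FPKM at 60h. Without the control libraries CAVIN4 would not have passed the filter. For SPARC they were INPP4B (0.10), PALMD (0.14) and ARPP21 (0.16). For FN1 they were SLC9A9 (0.02), DSEL (0.03) and ANTXR2 (0.05). With 4 points per gene and so many candidates, this is a description of likeness only.

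Markers of other cells moved beside these genes. The summed level of 13 fibroblast and fibro-adipogenic markers was 2997 to 3122 FPKM in control cells and 1718 to 1745 FPKM in the CBP arm at 0h, and 6440 to 6744 and 4829 to 5183 FPKM at 60h. Of the 12 tested, 8 were lower and 1 higher in the CBP arm at 0h (18.1% and 44.2% of all genes). At 60h 7 were lower and 3 higher (27% and 44.7%). PDGFRA, which defines fibro-adipogenic cells, went from 3.63 to 2.38 FPKM at 0h and from 10.3 to 20.8 FPKM at 60h, control first. No marker of this list was at 0 throughout a group, and several, such as COL1A1, are matrix genes themselves. COL1A1 and COL1A2, at 653 and 1909 FPKM in control cells at 0h, made up most of the sum in every group. Of 9 tested smooth muscle and pericyte markers, 9 were lower at 0h (18.1% of all genes). At 60h 6 of these markers were lower (27%) and 1 was higher (44.7%). Their summed level was 3729 to 3875 against 1470 to 1520 FPKM at 0h, and 3887 to 3897 against 2698 to 2891 FPKM at 60h, with none at 0. ACTA2 and TAGLN, at 2571 and 991 FPKM in control cells at 0h, made up most of that sum in every group. Both sums thus say little about the other markers. The part of fibroblasts, smooth muscle cells and pericytes in the results was not tested. All 7 satellite cell and myoblast markers were lower in the CBP arm at 0h (18.1% of all genes). At 60h 3 of these 7 were lower (27%) and 4 higher (44.7%). By fold, the falls at 0h ranged from MET, at 48.9 against 43.9 FPKM, to MYOG, at 343 against 28.5 FPKM, control first. At 60h MYOG stood at 589 FPKM in control cells and 448 FPKM in the CBP arm. Endothelial markers summed to at most 4.03 FPKM and immune markers to at most 7.91 FPKM in any library, with PTPRC at 0 in control cells at 0h and in the CBP arm at 60h. Adipocyte markers summed to at most 6.51 FPKM, with ADIPOQ at 0 in all 60h libraries.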

How the data were processed

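RNA-seq was carried out on 12 libraries of pig muscle satellite cells. The authors deposited 1 table of FPKM values for all genes, on Sscrofa11.1. Trimmomatic and featureCounts are named in the submitters' processing notes, without versions. Sources used here do not give the aligner, the annotation release or strand handling, so reads of overlapping or antisense genes cannot be told apart. Group labels were taken from the sample titles and genotype tags, and columns named NC were matched to the WT samples.

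FPKM values were whole multiples of 1 read per gene within a tolerance of 0.001, which gave back the depth, 16095335 to 19155240 reads per library. Genes with FPKM of at least 1 in at least 3 of 12 libraries were kept (11636). limma 3.58.1 in R 4.3.3 was fitted to log2(FPKM + 1), with a pseudocount of 1, over 4 group means with a trended prior. The 5 comparisons were tested two-sided at a Benjamini-Hochberg adjusted p of 0.05 over all genes tested. Folds are ratios of mean FPKM, and on the log2 scale changes of low genes are understated. The procedure was tested on simulated data. Alternatives covered scaling, pseudocount, filter, samples fitted, replicate block, each replicate left out and limma-voom on the recovered reads, the last chosen after seeing the data.

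The 10 genes and the lists were chosen with earlier results of these data known. From each list up to 4 called genes with the largest log2 change in either direction were named per comparison between arms, and for likeness the 3 nearest genes. A gene that this rule names is not reported here. Cell type markers outside that rule, PAX7, MYOD1, PDGFRA and COL1A1, were named as defining markers. COL1A2, ACTA2 and TAGLN were named as large parts of a sum, and MET and MYOG as the ends of a range. Promoter and protein sequences were not used here.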

Additional observations from a re-analysis of the deposited data

Results flagged for a closer look

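For 9 of the 10 genes the difference between the CBP arm and control cells was not the same at 60h as at 0h, by a test of the difference itself (interaction term in limma, adjusted p under 0.05). The values are the effect at 60h minus the effect at 0h, as log2 change of FPKM + 1. For POSTN the value was -1.24, for THBS1 -1.08, for SPP1 -0.56, for TNC -0.33 and for FN1 -0.23. For TGFBI it was 1.81, for THBS2 0.77, for SPARC 0.52 and for VCAN 0.40. Among all genes tested, 50.9% passed the same test, so passing it was common in these libraries. For SPP1 the direction turned, from higher in the CBP arm at 0h to lower at 60h. TGFBI turned the other way, although its call at 0h was lost under several alternatives. In this test stage and length of exposure cannot be told apart.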

How the results depend on the processing

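Under 20 alternatives, 988 values of single genes were recomputed; 960 kept their direction and their side of the threshold, 7 lost it, 8 gained it and 13 changed sign. Of 50 comparisons of a gene, 42 never changed. All 13 changes of sign were in values not called in the first place, and 1 of them, FN1 at 0h with median-of-ratios scaling, was then called (-0.13). FN1 at 0h was -0.030 with TPM scaling and -0.0059 to 0.023 with 1 replicate left out. CTHRC1 with 1 replicate left out ranged from -0.037 to 0.27 at 0h, from -0.14 to 0.093 at 60h and from -0.26 to 0.044 for the interaction, and was -0.12 at 60h with median-of-ratios scaling. VCAN in control cells between times was 0.051 with median-of-ratios and 0.068 with TPM scaling, and -0.052 to 0.0055 with 1 replicate left out. The count of the 10 genes higher at 60h went from 1 to 2 by limma-voom, and was 1 to 2 with 1 replicate left out, through THBS2; the cause was not tested. Among all genes, those higher at 0h numbered 5148, and 2987 with median-of-ratios scaling. Same-numbered libraries did not deviate together (correlations of -0.094 to 0.082, and 2 of 12 libraries correlated best with their own number). No pairing by number was thus seen, which cannot show that such libraries came from separate animals, cultures or batches. With the replicate block, the 10 genes gave the same counts in all 5 comparisons (for example 1 higher and 7 lower at 0h), and all genes gave 5098 higher and 2084 lower at 0h. A fit of only the groups compared gave no value for CTHRC1 at 0h, for POSTN between times in the CBP arm or for the interaction. Depth limits CTHRC1 at 0h and POSTN in the CBP arm.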

Other observations

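From 0h to 60h, 28.8% of all genes tested rose and 38% fell in control cells, and 31.3% rose and 41.5% fell in the CBP arm. Of the receptors tested, 15 of 20 rose and 3 fell in control cells (limma). Of the proteases and assembly enzymes 16 of 21 rose and 3 fell, and of the other matricellular genes 9 of 17 rose and 4 fell. In TGF-beta signalling 12 of 21 rose and 7 fell, the latter share near that of all genes. In the CBP arm 16 of 20 receptors and 16 of 21 proteases and assembly enzymes rose.

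ITGA3, an integrin subunit best known as a laminin receptor, was higher in the CBP arm at 0h (29.3 against 11.4 FPKM) and lower at 60h (3.55 against 5.49 FPKM). The difference between the effects at both times passed the test (interaction -1.80, limma adjusted p = 2.26e-08).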
